A study of Mus musculus with 6 samples.

Results

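The 30 genes described here carry glucose and lactate across the plasma membrane, run glycolysis from hexokinase to lactate dehydrogenase, and run the pentose phosphate pathway. They were chosen by symbol as members of these pathways, and all 30 were found among the 28786 gene IDs measured. The libraries came from bone marrow of C57BL/6 mice of wild type, 6 to 8 weeks old and with no treatment named, and each was made from 1500 cells gated as haematopoietic stem cells (HSCs), that is, negative for lineage markers and CD48 and positive for Sca-1, c-Kit and CD150. The gated cells were split by TMRM, a dye that enters mitochondria according to their membrane potential, into 3 TMRM-high and 3 TMRM-low libraries. The labels do not say whether libraries of a group came from separate or from pooled animals, and the p-values therefore rest on the variation among these 6 libraries, which may be technical. The question of the comparison is how RNA differs between HSCs with a high and with a low TMRM signal.

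Glycolysis splits glucose into pyruvate in the cytosol and yields ATP without oxygen. Pyruvate is then either reduced to lactate, which leaves the cell through monocarboxylate transporters, or taken into mitochondria and oxidised there. The pentose phosphate pathway branches off at glucose phosphate: its oxidative arm makes NADPH, and its non-oxidative arm makes ribose phosphate and returns sugars to glycolysis. HSCs are known for a strong reliance on glycolysis while they are quiescent, and for a larger use of mitochondria as they leave that state.

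Of the 30 genes, 5 rose in the TMRM-high libraries relative to the TMRM-low ones, 2 fell, and 23 did not pass the test. The 5 that rose were the hexokinase gene Hk3, the isomerase gene Gpi1, the phosphofructokinase regulator gene Pfkfb3 and the pentose phosphate genes Pgd and Rpe. The 2 that fell were the phosphofructokinase gene Pfkm and the lactate dehydrogenase gene Ldhb. The genes Tpi1, Gapdh, Pgk1, Pgam1, Eno1, Pkm and Ldha, which take triose to lactate, had log2 fold changes no larger than 0.18 in size and did not pass. All 30 genes passed the low-count filter. A gene was called at an adjusted p below 0.05, from edgeR's quasi-likelihood test with Benjamini-Hochberg adjustment over 13662 genes.

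The called genes amounted to 16.7% higher and 6.67% lower of the 30, where over all tested genes 5.84% were called higher and 5.12% lower. For genes with a mean of at least 100 CPM (each count relative to its library's scaled total) the share called was larger, 14.1% higher and 13.8% lower. Of the 16 pathway genes at that level 3 were higher, or 18.8%, and 0 were lower. Of the 14 pathway genes below that level 2 were higher and 2 lower, or 14.3% each, where 4.52% and 3.73% of all genes below it were called. The median log2 fold change, TMRM-high minus TMRM-low throughout, was -0.05 for the 30 genes and -0.03 over all tested genes. CPM of the 3 TMRM-high libraries lay wholly above or below those of the 3 TMRM-low libraries for 15 of the 30 genes, against 35.4% of all tested genes. Of these, 9 were higher (18.4% of all tested genes) and 6 lower (17% of all tested genes). Summed over the 30 genes, the level was 8257 to 8442 CPM in TMRM-high libraries and 7932 to 8925 CPM in the others, so the groups overlapped.

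Library totals ran from 14270069 to 22070594 estimated counts. The TMRM-high libraries were far more alike than the TMRM-low ones: with each group taken alone, the biological coefficient of variation was 7.23% and 41.5%, and the median coefficient of variation of the 30 genes was 3.70% and 15.7%. The model uses 1 spread for both groups. Without any 1 TMRM-high library, Hk3 and Gpi1 remained called, so that 2 genes were higher and 0 lower in edgeR, while 3.23%, 3.27% and 3.05% of all tested genes were called. At an unadjusted p below 0.05 there were 6, 6 and 7 higher and 3, 5 and 4 lower, without replicate 1, 2 and 3 in turn. With the 3 TMRM-high libraries summed into 1 and the spread taken from the TMRM-low libraries, edgeR called 0 in either direction and 0.937% of all genes, and 3 were higher and 0 lower at an unadjusted p below 0.05. The 7 called genes kept their direction in these fits. The share of all tested genes at an unadjusted p below 0.05 was not computed, so the counts at that level have no baseline here.

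Of the gate's own marker genes, Ly6a, which encodes Sca-1, was lower, with means of 30.3 CPM in the TMRM-high group and 167 CPM in the other. Kit, which encodes c-Kit, at 263 and 248 CPM, and Slamf1, which encodes CD150, at 5.53 and 5.13 CPM, overlapped between the groups and did not pass. Of 12 HSC markers 4 were lower and none higher, and their sum was 649 to 658 CPM in TMRM-high against 948 to 1072 CPM in TMRM-low libraries. Granulocyte and monocyte markers went the other way, with 11 of 14 higher, none lower and sums of 15556 to 15956 against 3701 to 4012 CPM. Higher too were 9 of 10 B lymphoid markers (561 to 572 against 48.5 to 52.9 CPM), 6 of 12 erythroid markers (220.5 to 244 against 57.3 to 70.7 CPM) and 5 of 8 basophil and mast cell markers (525 to 533 against 191 to 208 CPM). Of 12 G2/M markers 7 were higher and none lower, at 1850.0 to 1869 against 1243 to 1349 CPM. Megakaryocyte markers were at 359.7 to 371 against 92.9 to 118 CPM, with 2 of 6 higher. Macrophage markers were at 131 to 151 against 39.5 to 56.9 CPM, with 2 of 9 higher and 2 lower. T and NK markers were at 604 to 613 against 342.5 to 429.7 CPM, with 1 of 8 higher and 4 lower. Their median log2 fold changes were -2.18 and -2.83, so in both lists the sum went against the median gene. Tested were 13 granulocyte and monocyte, 11 erythroid, 5 megakaryocyte and 6 T and NK markers, and all markers of the other lists. Over all tested genes 5.84% were higher and 5.12% lower. No marker of these lists was at 0 in all libraries of a group. These shifts ran with the groups for every gene described here, and their part in the changes was not tested. In bulk RNA of this kind, fewer cells of a type and less RNA per cell cannot be told apart.

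**Figure D1:**
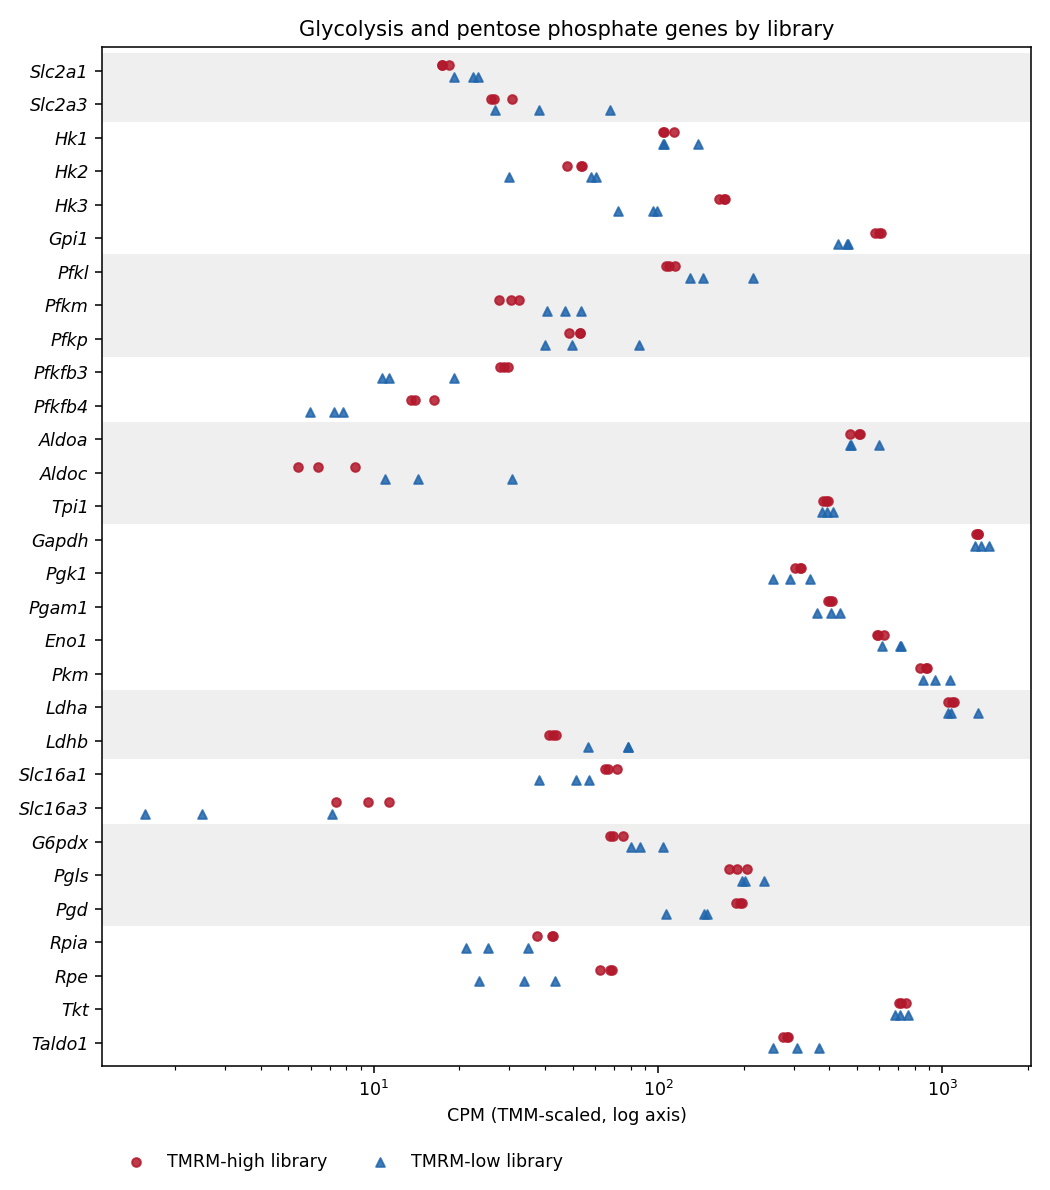
Level of each of the 30 genes in CPM on a log axis, ordered by step of the pathway, with 1 circle for each TMRM-high and 1 triangle for each TMRM-low library. In most genes the circles lie closer together than the triangles, and Hk3, Gpi1, Pfkfb3, Pgd and Rpe have all circles to the right of all triangles, as do Pfkfb4, Slc16a1, Slc16a3 and Rpia, which did not pass.

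The stretches before the start sites of 4 genes are shown because these genes carry the contrasts below: Hk3 and Rpe rose, Ldhb fell, and Ldha is the abundant partner of Ldhb that did not pass. Each is the 250 bases before a RefSeq start on GRCm38.p6, on the strand of the gene, with capitals for matches on either strand to ACGTG (the core of elements bound by hypoxia-inducible factors), CACGTG (the E-box, bound by MYC and related factors, which contains ACGTG on both strands) or GGGCGG (the GC box, bound by SP factors).
Hk3, chr13:55021386-55021635, minus strand: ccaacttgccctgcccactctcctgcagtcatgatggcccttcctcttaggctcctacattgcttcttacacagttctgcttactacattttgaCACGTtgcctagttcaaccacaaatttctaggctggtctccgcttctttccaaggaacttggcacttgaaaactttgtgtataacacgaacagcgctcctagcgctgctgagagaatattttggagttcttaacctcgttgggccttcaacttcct
Rpe, chr1:66700581-66700830, plus strand: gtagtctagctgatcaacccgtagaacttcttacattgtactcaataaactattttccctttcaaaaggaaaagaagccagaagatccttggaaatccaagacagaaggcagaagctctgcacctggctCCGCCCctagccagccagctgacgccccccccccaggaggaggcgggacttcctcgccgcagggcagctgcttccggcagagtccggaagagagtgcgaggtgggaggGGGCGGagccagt
Ldhb, chr6:142507958-142508207, minus strand: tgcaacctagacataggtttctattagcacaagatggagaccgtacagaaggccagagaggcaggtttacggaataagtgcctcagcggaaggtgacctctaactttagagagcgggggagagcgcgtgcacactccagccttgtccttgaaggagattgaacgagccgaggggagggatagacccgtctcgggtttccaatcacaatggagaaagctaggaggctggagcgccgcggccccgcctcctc
Ldha, the earlier of its RefSeq starts, chr7:46845554-46845803, plus strand: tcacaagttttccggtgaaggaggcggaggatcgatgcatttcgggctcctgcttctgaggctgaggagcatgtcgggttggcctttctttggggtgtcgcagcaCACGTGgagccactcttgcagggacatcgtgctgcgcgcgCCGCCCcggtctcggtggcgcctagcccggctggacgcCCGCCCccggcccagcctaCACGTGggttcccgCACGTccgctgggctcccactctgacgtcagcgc
The stretch of the earlier Ldha start held 2 E-boxes, a further ACGTG and 2 GC boxes, while the Ldhb stretch held no match. The stretch before the later Ldha start, not shown, held no match either. The contrast with Ldhb thus holds for the earlier start only, and which start was in use was not tested. Hk3 held a single ACGTG and Rpe 2 GC boxes. In windows of 300 bases (250 before to 50 after the start), ACGTG was found in 19 of 42 promoters of 29 matched pathway genes, or 45.2%, and in 19.6% of all 32851 promoters. CACGTG was found in 4 of the 42 against 7.15% of all, and GGGCGG in 27 of the 42, or 64.3%, against 35.7%. By call, ACGTG was in 3 of 7 promoters of genes that rose, 2 of 5 of genes that fell and 14 of 30 of genes that did not pass. CACGTG was in 1, 1 and 2 of these, and GGGCGG in 5, 0 and 22. These promoters belong to 5, 2 and 22 genes, so several starts of the same gene are counted. Those of genes that fell are starts of Pfkm and Ldhb alone, most of them of Pfkm. A match describes these letters in this window and not a bound site, and base composition was not adjusted for.

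Glucose enters through facilitative transporters. Slc2a1, which encodes the widespread carrier GLUT1, was at 17.3, 17.3 and 18.3 CPM in the TMRM-high and 22.3, 23.2 and 19.2 CPM in the TMRM-low libraries. All TMRM-high values lay below all TMRM-low values, but the log2 fold change of -0.29 (SE 0.206) did not pass (adjusted p = 0.442). Slc2a3, which encodes the high-affinity carrier GLUT3, was at 26.5, 30.5 and 25.9 against 26.8, 38.0 and 67.6 CPM. Its TMRM-low libraries spanned more than the difference between the groups (log2 fold change -0.67, SE 0.323, adjusted p = 0.244), and without TMRM-low replicate 3 it was -0.22.

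Hexokinases trap glucose in the cell by phosphorylating it. Hk3 (ENSMUSG00000025877, chromosome 13, 55005985 to 55021385 on GRCm38), a hexokinase of myeloid cells, was at 172, 163 and 171 CPM in the TMRM-high and 99.2, 96.0 and 72.5 CPM in the TMRM-low libraries. Every TMRM-high library was above every TMRM-low library. The log2 fold change was 0.92 (SE 0.128, adjusted p = 0.00445), a ratio of mean CPM of 1.89, and it ran from 0.80 to 1.01 with 1 library left out. Of 14 granulocyte and monocyte markers 11 were higher in the same libraries. Markers of other lists were higher too, among them 9 of 10 B lymphoid ones, while 4 of 12 HSC markers were lower. The part of these shifts in the Hk3 change was not tested. With the TMRM-high libraries summed, Hk3 kept its size and lost its call (adjusted p = 0.233).

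The other hexokinase genes did not pass. Hk1, the isoform of most tissues, was at 105, 104 and 114 against 139, 104 and 105 CPM (log2 fold change -0.11, SE 0.131, adjusted p = 0.663). Hk2, the inducible isoform bound to mitochondria, was at 53.5, 54.0 and 47.8 against 58.1, 60.4 and 29.9 CPM (log2 fold change 0.07, SE 0.259, adjusted p = 0.907). The 95% interval of the log2 fold change, per gene and not adjusted for the number of genes, was -0.41 to 0.20 for Hk1 and -0.54 to 0.67 for Hk2. Gpi1 (ENSMUSG00000036427, chromosome 7, 34201330 to 34230336) encodes the isomerase that turns glucose phosphate into fructose phosphate. It was at 609, 579 and 599 against 466, 429.7 and 464 CPM, with no overlap between the groups. The change was small but larger than the spread of either group (log2 fold change 0.40, SE 0.0565, adjusted p = 0.00473). It ran from 0.36 to 0.42 with 1 library left out, and the adjusted p was 0.4 with the TMRM-high libraries summed. Of the 31-base words of its main transcript, 32.5% also occurred in other genes.

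Phosphofructokinase commits sugar to glycolysis, and its 3 subunit genes all had log2 fold changes below 0, of which 1 passed. Pfkm, the muscle-type subunit (ENSMUSG00000033065, chromosome 15, 98092589 to 98132451), was at 30.4, 27.5 and 32.5 against 40.6, 53.7 and 47.1 CPM, without overlap. It fell by 0.65 on the log2 scale (SE 0.169, adjusted p = 0.0488), at the edge of the threshold. Its adjusted p was 0.0586 with total-count scaling, 0.0629 without a low-count filter, 0.058 without TMRM-low replicate 2, and 0.2, 0.243 and 0.168 without TMRM-high replicate 1, 2 and 3. Pfkl, the liver-type and most abundant subunit, was at 106, 109 and 115 against 129.7, 144 and 216 CPM. The groups did not overlap, yet the TMRM-low libraries were spread widely and it did not pass (log2 fold change -0.57, SE 0.183, adjusted p = 0.0937). It passed without TMRM-low replicate 1 (-0.70, adjusted p = 0.0427), with DESeq2 (adjusted p = 0.0222) and with limma voom (0.0145), and without TMRM-low replicate 3 it was -0.31. The fits in which it passed called 15.6%, 19.5% and 12.4% of all tested genes, against 11% as reported. Pfkp, the platelet-type subunit, was at 53.2, 48.8 and 53.0 against 49.8, 85.8 and 40.2 CPM and overlapped (-0.18, SE 0.267, adjusted p = 0.733), and without TMRM-low replicate 2 its value was 0.20. Its exons share 748 bases with Pitrm1 on the opposite strand.

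Enzymes of the PFKFB family make and remove a fructose bisphosphate that is the strongest activator of phosphofructokinase. It differs from the fructose bisphosphate that phosphofructokinase makes and aldolase splits. Pfkfb3, whose enzyme mainly makes the activator (ENSMUSG00000026773, chromosome 2, 11471433 to 11554077), was at 27.7, 29.7 and 28.6 against 19.1, 11.3 and 10.7 CPM. It rose by 1.06 on the log2 scale (SE 0.273, adjusted p = 0.047), and the groups did not overlap. The call was lost without TMRM-low replicate 2 (0.95, adjusted p = 0.0712) or 3 (0.92, 0.0569) and without TMRM-high replicate 1 (adjusted p = 0.173), 2 (0.202) or 3 (0.189). Pfkfb4, its relative with both activities, was at 13.5, 14 and 16.2 against 5.96, 7.80 and 7.24 CPM. Its value was of the same size and the groups did not overlap (1.06, SE 0.283), but it missed the threshold (adjusted p = 0.0524). It passed with DESeq2 (adjusted p = 0.00124) and without TMRM-low replicate 1 (0.0447), 2 (0.0339) or 3 (0.0371). These fits called 19.5%, 15.6%, 16.2% and 18.4% of all tested genes, against 11% as reported. Pfkfb4 did not pass with limma voom (0.128), without a low-count filter (0.0993) or without TMRM-high replicate 1 (0.199), 2 (0.222) or 3 (0.269). Both genes were thus higher in all 3 TMRM-high libraries, as were 18.4% of all tested genes. The phosphofructokinase subunit genes Pfkm and Pfkl were lower in all 3, as were 17% of all tested genes, and Pfkp overlapped. Pfkfb4 and Pfkl did not pass. Pfkfb1 and Pfkfb2 of the same family, named after their values were seen, overlapped between the groups. Neither passed, at log2 fold changes of 0.83 (adjusted p = 0.688) and 0.06 (adjusted p = 0.94).

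Aldolase and triose phosphate isomerase make the triose that enters lower glycolysis. Aldoa, the main aldolase gene, was at 509.7, 473 and 515 against 597, 478 and 474 CPM (log2 fold change -0.05, SE 0.0966, adjusted p = 0.802). Tpi1 was at 395, 380.4 and 389.9 against 412, 378 and 392 CPM (-0.02, SE 0.0585, adjusted p = 0.873). The libraries of both groups overlapped for these genes, and the 95% interval of Tpi1 was -0.16 to 0.12. For Aldoa, TMRM-low replicate 1 (597 CPM) stood above all other libraries, and without it the log2 fold change was 0.07. Aldoc, the brain-type aldolase gene, was low, at 6.35, 8.62 and 5.42 against 14.3, 30.6 and 10.9 CPM. All TMRM-high values were below all TMRM-low values and the value was the largest in size of the 30 genes (-1.45, SE 0.441), but it did not pass (adjusted p = 0.0785). It passed without TMRM-low replicate 3 (-1.72, adjusted p = 0.0325), with DESeq2 (0.0119) and with limma voom (0.0259), and without TMRM-low replicate 2 it was -0.89. The fits in which it passed called 18.4%, 19.5% and 12.4% of all tested genes, against 11% as reported.

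**Figure D2:**
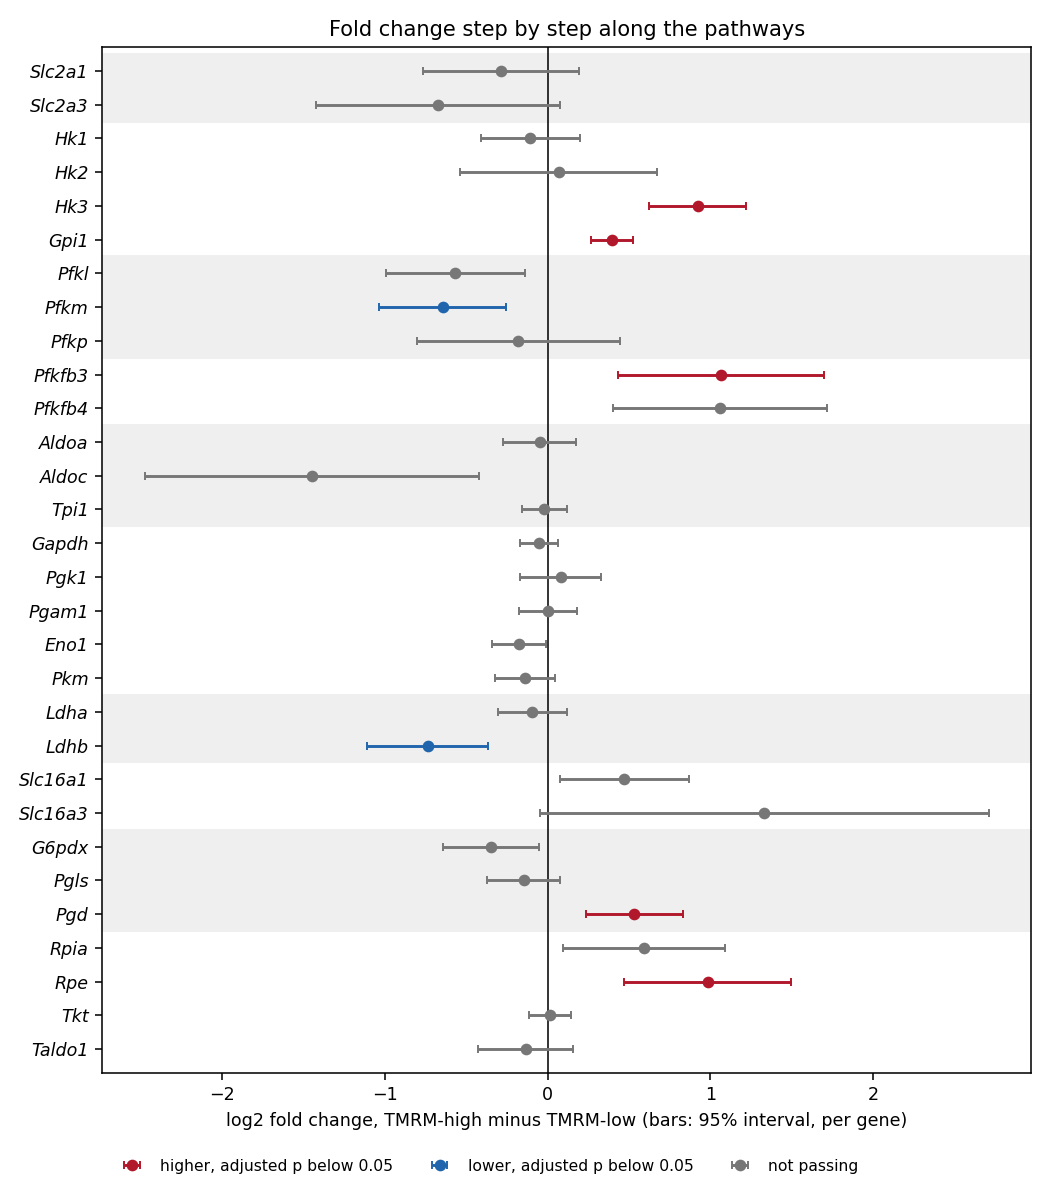
Log2 fold change, TMRM-high minus TMRM-low, of the 30 genes in pathway order, with the 95% interval per gene as bars and colours for genes called higher, called lower or not passing. The run from Tpi1 to Ldha lies close to 0 with narrow bars, and the 7 called genes lie outside this run or, for Ldhb, at its end.

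In lower glycolysis, where ATP is made, none of the 5 genes passed. Gapdh, which oxidises the triose, was at 1338, 1318 and 1333 against 1459, 1309 and 1369 CPM (log2 fold change -0.05, SE 0.0509, adjusted p = 0.58). Pgk1, which makes the first ATP of the pathway, was at 304, 319 and 315 against 290.2, 254 and 343 CPM (0.08, SE 0.107, adjusted p = 0.698). In both genes the TMRM-high libraries fell within the range of the TMRM-low libraries. Pgam1, a mutase, was at 395, 402 and 409.9 against 407, 363 and 437 CPM, with a log2 fold change of 0.00054 (SE 0.0763, adjusted p = 0.998). The enolase gene Eno1 was at 625, 588 and 596 against 711, 615 and 716 CPM (-0.18, SE 0.0706, adjusted p = 0.167). Eno1 passed without TMRM-low replicate 2 (-0.24, adjusted p = 0.0243), where 16.2% of all tested genes were called, against 11% as reported. Pkm, the pyruvate kinase gene, was at 882, 836 and 878 against 942, 854 and 1063 CPM (-0.14, SE 0.0802, adjusted p = 0.332). The 95% intervals reached from -0.17 to 0.07 for Gapdh, -0.17 to 0.33 for Pgk1, -0.18 to 0.18 for Pgam1, -0.34 to -0.01 for Eno1 and -0.33 to 0.05 for Pkm. Several of these genes have processed copies in the mouse genome: 84.1% of the 31-base words of the main Gapdh transcript, 77.2% of those of Eno1 and 68.3% of those of Pgk1 also occurred in other genes. Adding the counts of copies that share at least 50% of their words moved no log2 fold change of the 30 genes by more than 0.036. The copies of Gapdh, Eno1 and Pgk1 held few counts of their own, so adding them could move little. The highest, Gm3272, was at 1.68 CPM in the TMRM-high and 1.70 CPM in the TMRM-low group, before TMM scaling.

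Lactate dehydrogenase is built from the subunits LDHA, which favours lactate formation, and LDHB, which favours its oxidation. Ldha was at 1047, 1084 and 1104 against 1072, 1046 and 1334 CPM and did not pass (log2 fold change -0.09, SE 0.0922, adjusted p = 0.586). Ldhb (ENSMUSG00000030246, chromosome 6, 142490249 to 142507957) was at 43.9, 41.2 and 42.8 against 78.7, 56.5 and 78.2 CPM, with every TMRM-high library below every TMRM-low library. It fell by 0.74 on the log2 scale (SE 0.16, adjusted p = 0.0267). The value ran from -0.88 to -0.65 with 1 library left out, and the call was lost without TMRM-high replicate 1 (adjusted p = 0.125), 2 (0.146) or 3 (0.136). Of its 31-base words 41.4% also occurred in other genes. Its only near-identical copy in the data, Gm5514, was at 0 CPM in both groups, so adding it could not change the call.

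Lactate leaves and enters through monocarboxylate transporters. Slc16a1, which encodes MCT1, was at 66.4, 71.8 and 65.2 against 38.1, 51.5 and 57.4 CPM, and Slc16a3, which encodes the exporter MCT4, at 11.3, 7.39 and 9.51 against 2.49, 1.56 and 7.13 CPM. In both genes all TMRM-high libraries were above all TMRM-low libraries. Neither passed, at log2 fold changes of 0.47 (SE 0.171, adjusted p = 0.131) and 1.33 (SE 0.594, adjusted p = 0.212). TMRM-low replicate 3 held the highest TMRM-low value of both, and without it both passed, at 0.60 (adjusted p = 0.0471) and 2.21 (adjusted p = 0.0177). That fit called 18.4% of all tested genes, against 11% with all libraries.

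The oxidative arm of the pentose phosphate pathway has 3 steps, and its genes did not move together. G6pdx, the X-linked gene of the first and rate-limiting dehydrogenase, was at 69.4, 75.4 and 67.8 against 86.5, 104 and 80.4 CPM. It was lower in all TMRM-high libraries but did not pass (log2 fold change -0.35, SE 0.127, adjusted p = 0.132). Pgls, the lactonase gene, was at 205, 190.0 and 177 against 236, 197 and 202 CPM (-0.15, SE 0.0975, adjusted p = 0.398), and its exons share 776 bases with Fam129c on the same strand. Pgd (ENSMUSG00000028961, chromosome 4, 149149991 to 149166771), which encodes phosphogluconate dehydrogenase, the other NADPH-forming step, was at 188, 197 and 194 against 107, 145 and 148 CPM. It rose by 0.53 on the log2 scale (SE 0.127, adjusted p = 0.0377), without overlap, and ran from 0.40 to 0.62 with 1 library left out. Its call was lost without TMRM-high replicate 1 (adjusted p = 0.134), 2 (0.157) or 3 (0.155). The exons of G6pdx share 418 bases with Ikbkg on the opposite strand, and whether counting used strand is not stated. Ikbkg was at 34.4 ± 2.53 against 54.4 ± 12.7 CPM (SD, n = 3 each), in the direction of G6pdx.

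The non-oxidative arm interconverts pentoses and returns carbon to glycolysis. Rpe, the ribulose phosphate epimerase gene (ENSMUSG00000026005, chromosome 1, 66700831 to 66719805), was at 62.7, 68.6 and 67.7 against 33.7, 23.5 and 43.4 CPM. The groups did not overlap, and it rose by 0.98 on the log2 scale (SE 0.221, adjusted p = 0.0306). The call was lost without TMRM-low replicate 1 (0.99, adjusted p = 0.0543) and without TMRM-high replicate 1 (adjusted p = 0.116), 2 (0.142) or 3 (0.141). Its annotated exons share 558 bases with Kansl1l on the opposite strand, which was at 30.2 ± 3.37 against 32.9 ± 12.3 CPM (SD, n = 3 each) and did not pass. Rpia, the ribose phosphate isomerase gene, was at 42.4, 42.6 and 37.4 against 21.2, 34.8 and 25.3 CPM. It too had no overlap and did not pass (0.59, SE 0.215, adjusted p = 0.13). Rpia passed without TMRM-low replicate 2 (0.81, adjusted p = 0.0228), where 16.2% of all tested genes were called, against 11% as reported.

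The genes of the enzymes that link this arm to glycolysis did not pass. Tkt, the transketolase gene, was at 748, 703 and 718 against 707, 683 and 757 CPM (log2 fold change 0.01, SE 0.0569, adjusted p = 0.911, 95% interval -0.12 to 0.15). Taldo1, the transaldolase gene, was at 287, 275 and 285 against 369, 254 and 308 CPM (-0.13, SE 0.126, adjusted p = 0.567, 95% interval -0.43 to 0.16). For both, the TMRM-high libraries lay within the range of the TMRM-low ones. Summed by step, the non-oxidative arm was at 1089 to 1140.2 against 995 to 1134 CPM and the oxidative arm at 439 to 463 against 429.7 to 445 CPM.

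Divided by transcript length, levels can be set beside each other, in CPM per kilobase. Gapdh was the highest of the 30 genes in both groups, at 936 in TMRM-high libraries and 971 in TMRM-low ones, followed by Ldha (610.4 and 651), Pkm (356 and 392) and Aldoa (330.4 and 342). The order of the first 5 genes, with Eno1 as the last of them (297 and 336), was the same in both groups. The transporters and regulators stood at the low end: Slc2a1 at 5.42 and 6.61, Pfkfb4 at 4.18 and 2.01, and Slc16a3 at 2.17 and 0.860. Hk3 stood at rank 14 in the TMRM-high group (52.5) and at rank 18 in the TMRM-low group (27.7), below Hk1 (30.1) in the latter. Hk1 and Hk3 of the TMRM-low libraries differ by less than the spread between these libraries.

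Within a family, the share of each isozyme in a library does not depend on how libraries are scaled. Hk3 made up 59.2%, 58.0% and 58.1% of hexokinase RNA per length in the TMRM-high and 39.8%, 43.9% and 40.9% in the TMRM-low libraries. Hk1 made up 31.1% ± 1.20 in the first group (SD, n = 3) against 46.5%, 39.9% and 49.3% in the second. Hk1 led Hk3 in 2 of 3 TMRM-low libraries and in none of the TMRM-high ones. The share of Ldha was 94.9% ± 0.250 against 92.3% ± 1.16, and that of Aldoa 99.3% ± 0.213 against 98.0% ± 1.21 (SD, n = 3 each). For Hk1, Hk3, Ldha and Aldoa the shares did not overlap between the groups.

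The two-sided exact permutation p of the Hk1, Ldha and Aldoa shares was 0.1, the smallest that 3 against 3 libraries allow, and 0.233 after Benjamini-Hochberg adjustment over 7 families. The shares of the other families overlapped. Slc2a1 made up 43.8% ± 2.75 against 39.5% ± 12.6 of the Slc2a1 and Slc2a3 pair (SD, n = 3 each). Other glucose transporter genes are not counted in this pair. Slc2a8, for example, was at 3.35 CPM per kilobase in the TMRM-high and 6.46 in the TMRM-low group. It did not pass (log2 fold change -0.95, SE 0.364, adjusted p = 0.15). Slc2a9, named after its values were seen, had the other sign, at 1.87 against 0.656 CPM per kilobase. It did not pass either (1.51, SE 0.403, adjusted p = 0.0524). Pfkl made up 56.3% ± 1.48 against 58.5% ± 9.83 of phosphofructokinase RNA. Slc16a1 made up 87.6% ± 2.68 against 93.2% ± 4.16 of the Slc16a1 and Slc16a3 pair. Pfkfb3 made up 59.7% ± 2.41 against 58.5% ± 10.6 of the Pfkfb3 and Pfkfb4 pair. The smaller SD of the TMRM-high group recurs in each.

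**Figure D3:**
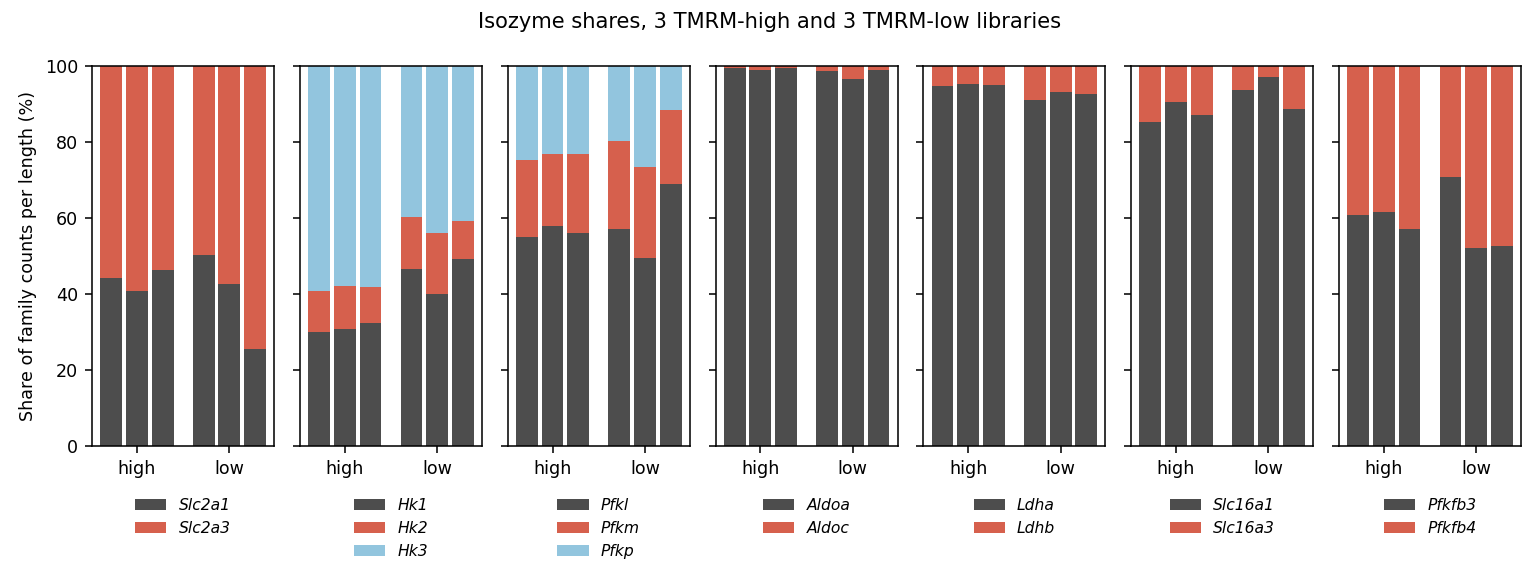
Share of each gene in its family's counts per transcript length, in percent, as stacked bars for the 3 TMRM-high and 3 TMRM-low libraries. Hk3 takes over 58% of the hexokinase bar in each TMRM-high library and under 44% in each TMRM-low library, while Aldoa and Ldha fill over 90% of their bars in all 6.

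A list of 67 further genes of these pathways gives the surroundings, of which 57 could be tested, with 4 higher, 5 lower and 48 not passing, where 5.84% of all tested genes were higher and 5.12% lower. Their median log2 fold change was 0.06. The lists are short, and a count of 1 or 2 in a list is described and not read against this share. By list, 2 of 7 tested transport genes and partners were lower, as were 2 of 6 regulators and 1 of 5 pentose and ribose genes. Higher were 1 of 13 further isozymes (Ldhc), 1 of 12 glycogen genes, 1 of 10 genes of the fate of pyruvate and 1 regulator. None of 4 tested genes of the list of further Pfkfb and fructose bisphosphatase genes passed. The genes that rose included Mpc1, a subunit of the carrier that brings pyruvate into mitochondria, at 183 ± 4.25 against 131 ± 14.3 CPM (SD, n = 3 each), a log2 fold change of 0.49 (SE 0.0959, adjusted p = 0.0184). Its partner subunit Mpc2, named after its values were seen, had the other sign and did not pass, at 61.2 ± 2.42 against 83.4 ± 13.6 CPM (-0.44, SE 0.143, adjusted p = 0.0929). Hif1a, the hypoxia-inducible factor gene that drives many glycolysis genes, was at 83.1 ± 3.69 against 49.6 ± 8.70 CPM (0.75 on the log2 scale, SE 0.153, adjusted p = 0.0217). Pygl, a glycogen phosphorylase gene, was at 91.5 ± 2.49 against 59.6 ± 10.4 CPM (0.62, SE 0.147, adjusted p = 0.0368). Ldhc, the testis-type lactate dehydrogenase gene, had 98 counts over the TMRM-high and 1 over the TMRM-low libraries. The ratio was 90.5, and counting error alone (exact, 95%) allows 15.9 to 3612. Per library it reached only 1.49 to 2.43 CPM in the TMRM-high group. It passed the low-count filter through that group alone, so its call adds no support, and it was not tested where a mean count of 50 was required.

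The genes that fell included both known partner proteins of the monocarboxylate transporters. Emb, which encodes embigin, was at 198 ± 5.29 against 369.7 ± 18.5 CPM (-0.90 on the log2 scale, SE 0.0659, adjusted p = 0.000186). Bsg, which encodes basigin, was at 249.7 ± 10.3 against 343 ± 28.5 CPM (-0.46, SE 0.0777, adjusted p = 0.0101). The transporter genes themselves had values of the other sign. Myc, a transcription factor gene that activates glycolysis genes, was at 239 ± 4.43 against 354 ± 24.7 CPM (-0.57, SE 0.0697, adjusted p = 0.00222). Txnip, which encodes an inhibitor of glucose uptake, was at 107 ± 1.40 against 149.7 ± 9.90 CPM (-0.48, SE 0.0851, adjusted p = 0.0115). The fifth gene was Prps2, a phosphoribosyl pyrophosphate synthetase gene outside the naming rule and named after its values were seen (-0.82, SE 0.174, adjusted p = 0.0246).

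Without any 1 TMRM-high library none of the 4 higher genes of this list remained called in edgeR, with adjusted p-values of 0.0558 to 0.168, while Emb and Myc remained called. At an unadjusted p below 0.05 there were then 6, 6 and 7 higher and 6, 7 and 5 lower genes, without replicate 1, 2 and 3. Counts at this unadjusted level have no baseline here, as the share of all tested genes was not computed. With the TMRM-high libraries summed, edgeR called 0 higher and 1 lower, Emb, with 2 higher and 5 lower at an unadjusted p below 0.05.

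**Figure D4:**
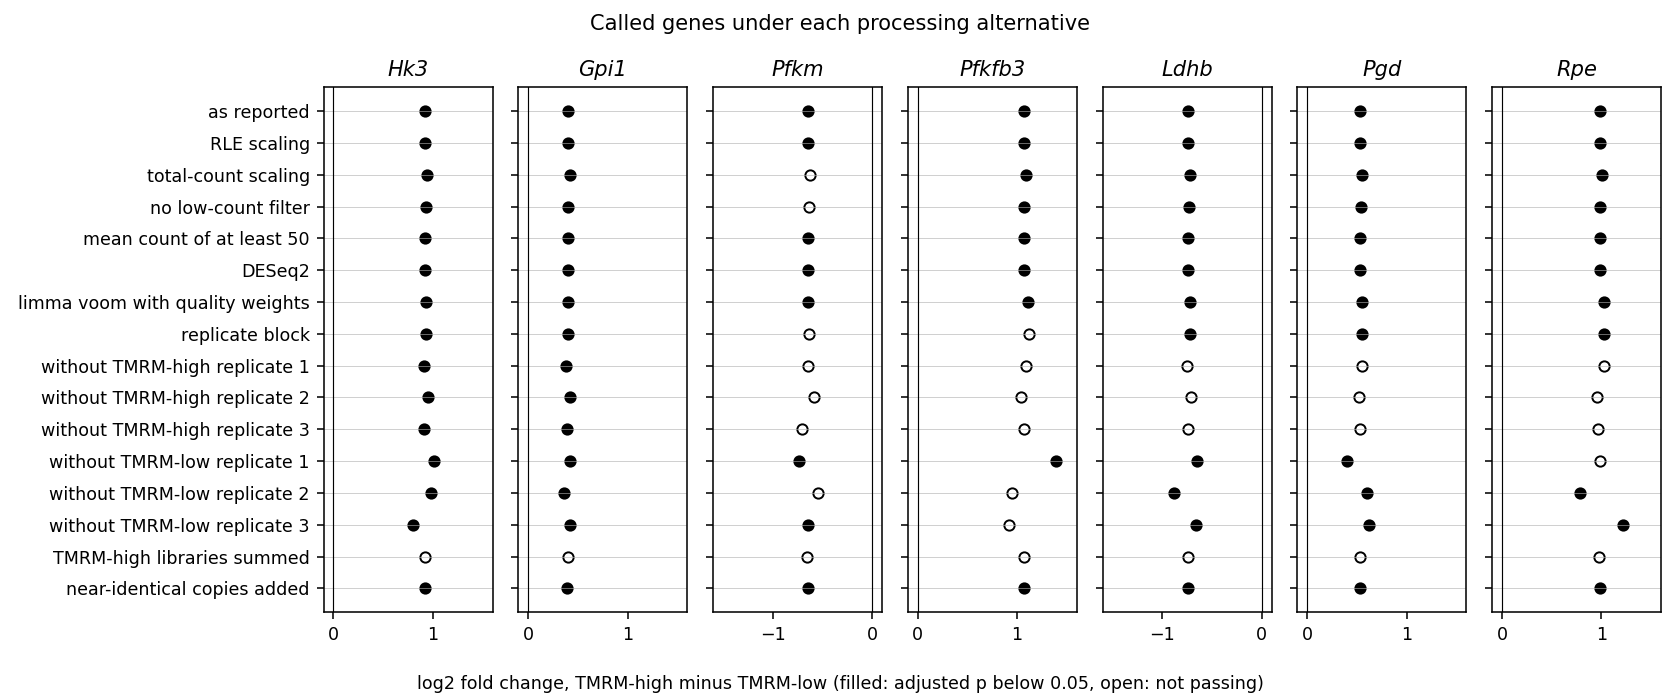
Log2 fold change of the 7 called genes as reported and under each of the other 15 ways of processing, filled where the adjusted p is below 0.05 and open where it is not. The points of a gene stay on their side of 0, and the filled points of Hk3 and Gpi1 give way to open ones only where the TMRM-high libraries are summed.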

How the data were processed

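RNA of 6 libraries was measured by low-input RNA-seq. Per the labels' protocols, full-length cDNA of the sorted cells went through 13 PCR cycles before tagmentation, and was sequenced as pairs of 150 bases. No molecular identifiers or strand marking are described, so PCR copies count as reads and counting intervals cover counting error only. Build GRCm38, Salmon (listed with version 0.03.1) and Trim Galore 0.5.0 are named in the submitters' processing notes. Not given in the sources used here are the annotation and how transcripts were summed to genes. The authors deposited a table of estimated counts for each gene, not scaled to depth, in which Salmon divides reads between similar transcripts.

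The estimated counts were rounded. Symbols, positions and lengths (longest principal transcript) came from GENCODE M21, which held 27728 of 28786 IDs. Genes were kept by filterByExpr, scaled by TMM and tested with edgeR 4.0.16 (glmQLFit, robust, group as the only term) in R 4.3.3, over 13662 genes. CPM use TMM-scaled library sizes, the SE is the log2 fold change divided by the square root of F, and its 95% interval uses the test's degrees of freedom. Isozyme shares were compared by exact permutation over libraries. The edgeR, limma voom and DESeq2 fits were tested on simulated counts, and the other steps were not. The simulation gave both groups the same spread for each gene. It therefore cannot show how the fits behave with the unequal spread of these groups (biological coefficient of variation 7.23% and 41.5%). Alternatives used limma 3.58.1 and DESeq2 1.42.0. All 30 members are described; of further pathway genes, up to 4 called in each direction with the smallest p are named. Stretches before starts are RefSeq's, shown for 3 called genes and Ldha, and only where no annotated exon lies in them. The members, lists and tests were chosen with earlier results of these data known.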

Additional observations from a re-analysis of the deposited data

How the results depend on the processing

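The log2 fold changes of the 7 called genes kept their sign under all 15 alternatives. Genes called higher numbered 5, against 4 to 6 under the other scalings, filters and tests, 2 to 7 with 1 library left out, and 0 with the TMRM-high libraries summed. Genes called lower numbered 2, against 1 with total-count scaling, 1 without a low-count filter, 4 with DESeq2, 4 with limma voom, 0 to 3 with 1 library left out and 0 with the TMRM-high libraries summed. Of the further pathway genes, 4 were higher and 5 lower, against 0 to 8 and 2 to 9 with 1 library left out, and 0 and 1 with the TMRM-high libraries summed; summing leaves fewer libraries in the fit. These settings were applied to the further genes after the data had been seen. The counts are to be read beside the share of all tested genes called in the same fit, which was 11% as reported. It was 19.5% with DESeq2, 12.4% with limma voom, 6.43% without a low-count filter and 7.55% with the replicate number as a block. Without TMRM-low replicate 1, 2 or 3 it was 15.6%, 16.2% and 18.4%, and without TMRM-high replicate 1, 2 or 3 it was 3.23%, 3.27% and 3.05%. Deviations of same-numbered libraries correlated at -0.014, 0.016 and 0.021. The TMRM-high libraries differ so little that these values cannot show whether replicate numbers pair the libraries. With the replicate number as a block, 4 genes were higher and 1 lower, and Pfkm (adjusted p = 0.119) and Pfkfb3 (0.0712) did not pass. With 1 library left out, the difference in share ran from -2.66 to 9.65 percentage points for Slc2a1, -6.72 to 3.03 for Pfkl and -1.98 to 7.28 for Pfkfb3, so their direction rested on single TMRM-low libraries; the cause was not tested. The Hk1, Aldoa, Ldha and Slc16a1 shares kept their direction in these fits and without division by length. The spread of the TMRM-low libraries, more than the number of counts, sets the width of the intervals of Aldoc, Slc2a3 and Slc16a3.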
